A study of Homo sapiens with 10 samples.

Results

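Arrays of human PC-3 prostate cancer cells titled L+G were compared with those titled luteolin. By the labels, the first are from cells exposed for 24 h to 60 µM luteolin together with 60 µM gefitinib and the second from cells exposed for 24 h to 60 µM luteolin alone, but the scanner files are named otherwise. The comparison uses 4 of the 10 mRNA arrays of the series, 2 per group, chosen by sample title, and covers all 19718 genes that had a probe with a clear signal (marked as well above background by the scanner software) on the 2 arrays of some group, of 5 groups in all. The other 6 arrays are, by their labels, untreated cells at 0 h, cells given the vehicle DMSO for 24 h and cells given 60 µM gefitinib for 24 h, again 2 each. Both drugs were dissolved in DMSO, PC-3 is an established line, and the titles number the arrays as biological replicates without saying that they came from separate cultures. The p-values thus measure only the spread between these samples, estimated over the replicate arrays of all 5 groups.

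The treatments in the titles and in the names of the scanner files differ for these arrays. The arrays titled L+G have luteolin in the file name and those titled luteolin have gefitinib, so that by file name the same 4 arrays compare 2 single drugs, luteolin minus gefitinib. The names used are those of the titles, and every sentence that speaks of L+G or luteolin refers to the arrays so titled. The values do not depend on the naming, but the labels do not settle which drug each array received, and no difference is ascribed to a drug. LEFTY1, given below beside the paper's account of it, follows the file names.

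Gefitinib is a kinase inhibitor that blocks the epidermal growth factor receptor (EGFR), which drives the ERK and PI3K pathways and, through them, entry into S phase. Luteolin is a plant flavonoid that inhibits several kinases. Cells under amino acid or endoplasmic reticulum stress translate the transcription factor ATF4, which switches on amino acid synthesis, amino acid transport and tRNA charging genes, while a proliferating cell relies on E2F factors to switch on its replication genes.

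Epithelial identity was seen on every array, with KRT8, KRT18, KRT19, EPCAM and CDH1 well above background on all 10. KLK3, which encodes prostate-specific antigen, was above background on all 10 arrays too. The defining markers PTPRC of leukocytes, VWF of endothelium and DCN of fibroblasts were above background on 0 of 10 arrays, while CD3E and CD14 of the leukocyte list and PECAM1 of the endothelial list were above it on all 10, COL1A1 of the fibroblast list on 9 and LUM on 8. The summed linear levels of the 3 endothelial, 4 leukocyte and 4 fibroblast markers lay between 0.0626 and 0.285 on the 4 arrays, against 57.5 to 133 for the 5 epithelial ones, relative to the 75th percentile. PECAM1, COL1A1 and KRT19 were nevertheless called lower with L+G (-1.53, -1.94 and -1.04) and LUM higher (1.64), and their part in other results was not tested. The array-wide 75th percentile of signal was 1173 and 1041 on the luteolin arrays and 864.6 and 539.8 on the L+G arrays, the second L+G array being the dimmest of the 10, and replicates correlated at 0.993 for luteolin and 0.9834 for L+G, across probes, which are not independent replicates.

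The expression of 2222 genes was higher and that of 1923 genes lower with L+G than with luteolin. The call required an adjusted p under 0.05 in limma, with Benjamini-Hochberg adjustment, and a difference of at least 1 on the log2 scale, which is 2-fold, and the background shares of all genes tested were 11.3% higher and 9.75% lower. Differences of at least 4-fold were found for 490 genes that were higher and 291 that were lower. Levels are log2 signals scaled to the 75th percentile of their array, so a level of 0 lies at that percentile, and a difference is L+G minus luteolin. The median difference over all genes was 0.16, and quantile normalization brought it to 0.01 and the share of called genes that were higher from 53.6% to 43.2%. Restricted to the 17152 genes with a clear signal on each of the 4 arrays, the shares were 9.33% higher and 9.28% lower. The median SD between the 2 replicates of a gene was 0.258 for L+G and 0.136 for luteolin.

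**Figure D1:**
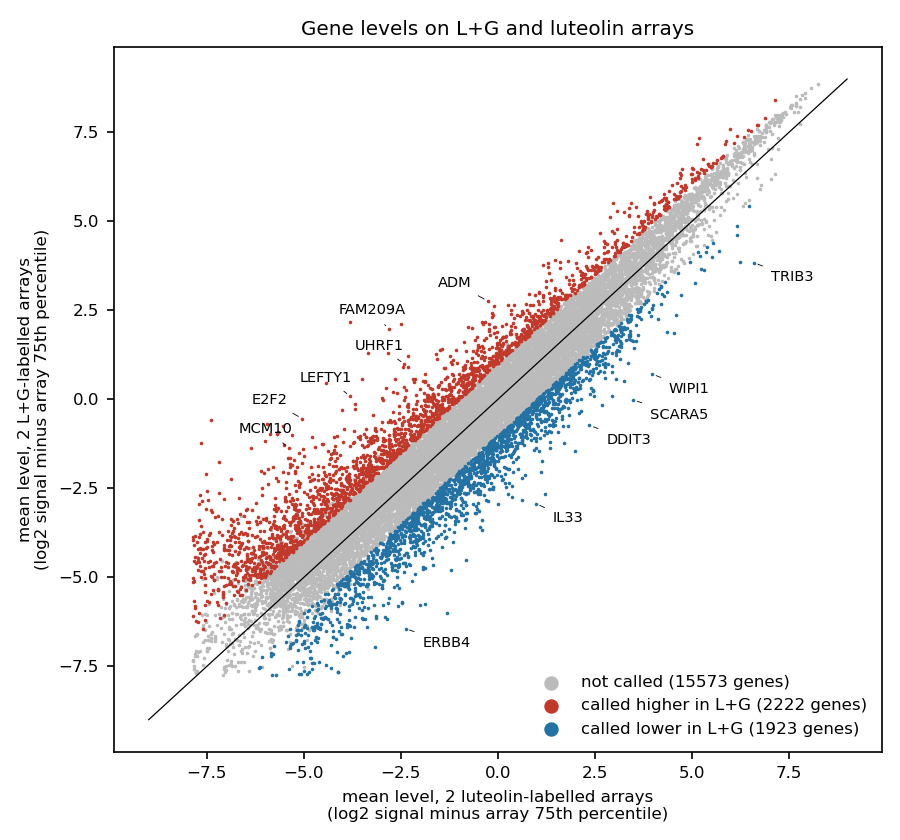
Mean level of each of 19718 genes on the 2 luteolin-titled arrays (x axis) and the 2 L+G-titled arrays (y axis), in log2 units scaled to the 75th percentile. Points are genes, red where called higher with L+G (2222) and blue where called lower (1923), and the line marks equal levels. The called genes lie on both sides of the line over most of the range, and the widest departures from it are at low levels.

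The clearest group was DNA replication, in which 33 of 42 members were higher with L+G, 0 were lower and the median difference was 1.54, against 0.16 over all genes. These are the helicase, polymerase, clamp loader and nucleotide genes used in S phase together with the E2F and cyclin E genes that start it. All 42 differences were positive, from 0.29 to 4.51, and in 39 members both L+G arrays were above both luteolin arrays, where 42.6% of all genes showed this. With any 1 array of the 10 left out, 31 to 37 members were called higher and 0 lower.

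UHRF1, which carries DNA methylation through replication, read 1.04 and 0.93 on the L+G arrays, -2.09 and -2.74 on the luteolin arrays and 2.08 and 1.84 on the DMSO arrays. Both L+G arrays lay above both luteolin arrays and nearer to the vehicle (difference 3.40 ± 0.24, n = 2 per group, 10.6-fold, adjusted p = 0.000168). Here and below, ± gives the SE of limma. It draws on the spread within all 5 groups and over genes, not on the 4 arrays alone. RRM2, the small subunit of ribonucleotide reductase, read 1.25 and 0.56 with L+G and -2.26 and -2.61 with luteolin (3.35 ± 0.24, adjusted p = 0.000179). DTL, the substrate receptor of a ubiquitin ligase that limits origin licensing, read 1.30 and 1.14 with L+G and -2.06 and -2.61 with luteolin (3.56 ± 0.23, adjusted p = 0.000168). In none of these 3 genes did the groups overlap. E2F2, an activating E2F factor, differed by 4.51 ± 0.27 and MCM10, needed to fire origins, by 4.03 ± 0.20, each with 1 of 2 luteolin arrays well above background. Cyclin E2, CCNE2, was above background on neither luteolin array and at least 4.94-fold higher with L+G as processed here (adjusted p = 0.00112). Its log2 difference fell to 1.54 in the alternatives. GINS2 of the helicase (2.84), the thymidylate synthase gene TYMS (2.54), the flap nuclease FEN1 (2.49) and the helicase subunit MCM5 (2.36) followed.

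The promoters of replication genes are shown because E2F sites mark this group. In RefSeq promoters (GRCh38.p14, 300 bases each, reaching from upstream of the start to just past it), TTTGGCGC or TTTCCCGC, read on both strands, was found in 19 of the 37 list members that had an entry and in 2.31% of 27305 promoters. Of the 28 called members with an entry, 13 held a match. The following are 3 members called higher with L+G, 5′ to 3′ on the gene's strand, with the matched letters in capitals (a match on the opposite strand reads as the reverse complement), from chr19:4909251-4909550 (plus strand), chr1:212035498-212035797 (plus strand) and chr16:85688905-85689204 (minus strand). A match describes the letters and not binding.
UHRF1: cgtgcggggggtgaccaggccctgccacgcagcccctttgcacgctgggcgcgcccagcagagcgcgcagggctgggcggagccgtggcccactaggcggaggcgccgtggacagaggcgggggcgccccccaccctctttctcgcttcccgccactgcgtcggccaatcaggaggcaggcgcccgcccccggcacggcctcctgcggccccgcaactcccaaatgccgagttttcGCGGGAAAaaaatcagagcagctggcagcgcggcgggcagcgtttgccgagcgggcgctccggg
DTL: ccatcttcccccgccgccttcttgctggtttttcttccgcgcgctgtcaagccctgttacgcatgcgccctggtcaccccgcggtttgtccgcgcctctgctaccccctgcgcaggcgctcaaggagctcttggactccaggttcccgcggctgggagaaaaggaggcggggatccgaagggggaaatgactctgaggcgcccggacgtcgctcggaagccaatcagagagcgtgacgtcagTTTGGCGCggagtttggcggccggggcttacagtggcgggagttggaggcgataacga
GINS2: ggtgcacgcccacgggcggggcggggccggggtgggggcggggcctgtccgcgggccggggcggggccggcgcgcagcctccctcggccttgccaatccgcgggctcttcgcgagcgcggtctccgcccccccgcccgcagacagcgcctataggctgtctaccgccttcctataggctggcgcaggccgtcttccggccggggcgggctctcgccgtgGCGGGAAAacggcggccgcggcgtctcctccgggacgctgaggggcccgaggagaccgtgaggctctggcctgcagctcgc

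Mitosis genes differed less. In this list 12 of 37 members (32.4%) were higher with L+G, 0 were lower and the median difference was 0.75, beside 11.3% of all genes higher and 9.75% lower. BIRC5, encoding survivin of the chromosomal passenger complex, read 5.12 and 5.64 with L+G and 3.56 and 3.18 with luteolin (2.01 ± 0.21, adjusted p = 0.000583). CDK1, the mitotic kinase, read 2.98 and 2.34 against 1.27 and 0.52 (1.76 ± 0.30, adjusted p = 0.00322), and CDCA8, a partner of BIRC5, differed by 1.60. MKI67, the proliferation antigen Ki-67, differed by 1.60 with 1 of 2 luteolin arrays above background, a call that was lost without the first L+G or the second luteolin array. The number of members called higher was 8 without the first L+G array, 7 without the second luteolin array and 19 without the first luteolin array. In a list of cell cycle brakes and D-type cyclins, CDKN1C (-1.83), the inhibitor p57, was lower, while RBL1 (1.55), a pocket protein, and CCND1 (1.43), cyclin D1, which promotes cell cycle entry and is also in the ERK output list, were higher, and CDKN2B, the inhibitor p15, read 1.81 and 2.70 with L+G and 3.05 and 3.74 with luteolin (-1.14 ± 0.40, adjusted p = 0.0488). The CDKN2B call was lost in 11 of 23 alternatives, and both groups lay above DMSO, at -0.52 and -0.39. Over the 16 members tested, 4 (25%) were higher and 2 (12.5%) lower and the median was 0.01. The other higher members were the brakes BTG2 (1.31) and GADD45B (1.04, a call lost with quantile normalization).

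**Figure D2:**
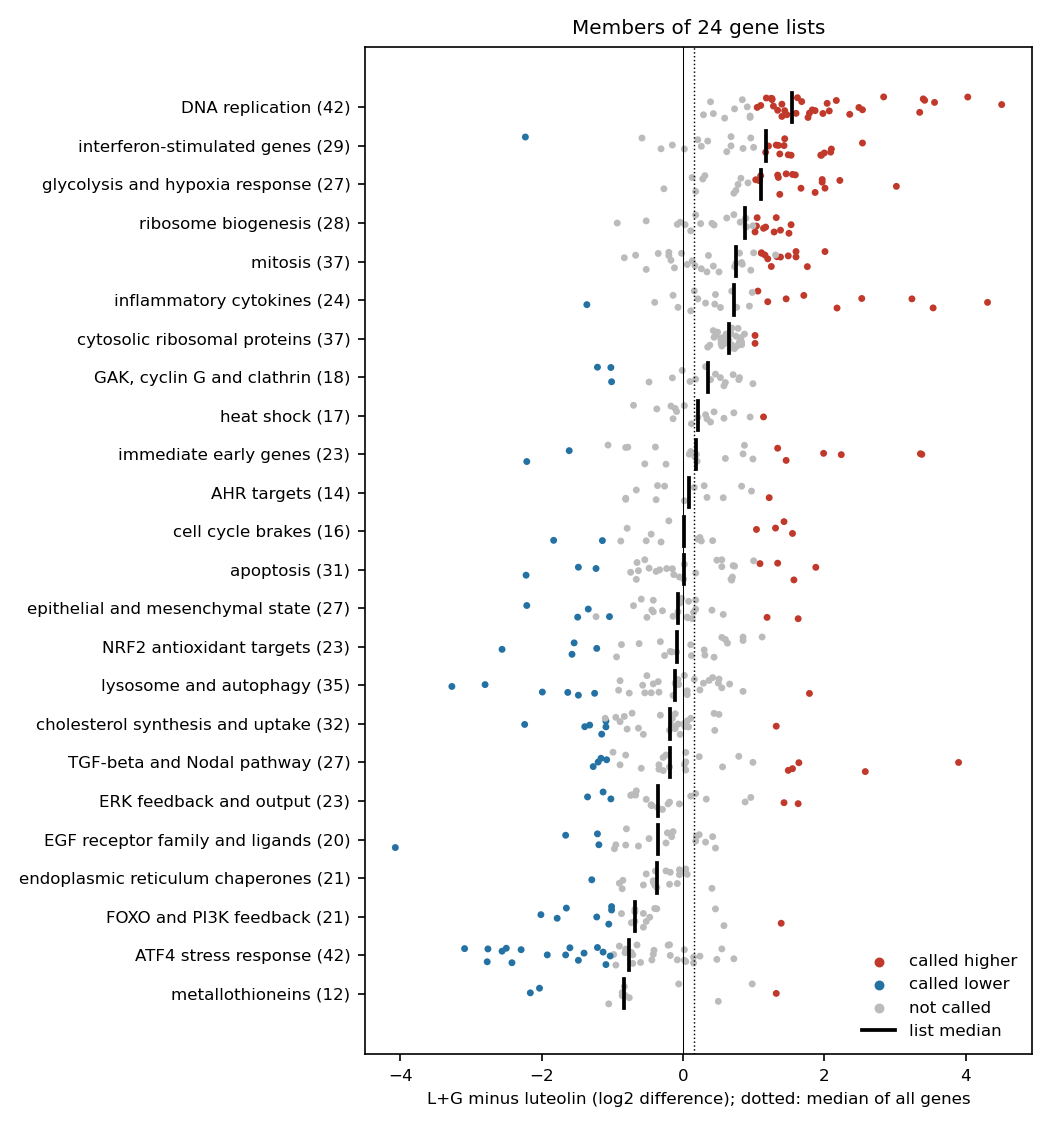
Difference L+G minus luteolin (x axis, log2) of each tested member of 24 gene lists (y axis, number tested in parentheses). Points are genes, red where called higher, blue where called lower and grey where not called, black bars are list medians and the dotted line is the median of all genes, 0.16. DNA replication (median 1.54) and the interferon-stimulated genes (1.17) lie to the right, and ATF4 targets (-0.77) and metallothioneins (-0.83) to the left.

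The stress program of ATF4 ran the other way. Of its 42 tested members 16 were lower with L+G, 0 were higher and the median was -0.77, beside 9.75% lower and a median of 0.16 over all genes. TRIB3, a pseudokinase induced by ATF4, read 3.57 and 4.10 with L+G, 6.17 and 7.04 with luteolin and 3.39 and 3.60 with DMSO (-2.77 ± 0.32, 6.80-fold lower, adjusted p = 0.000796). The L+G arrays differed from the vehicle by 0.34 for this gene (adjusted p = 0.419) and the luteolin arrays stood apart. DDIT3, the pro-apoptotic factor CHOP, read -0.77 and -0.69 with L+G and 1.67 and 3.05 with luteolin (-3.09 ± 0.49, adjusted p = 0.00249), the luteolin arrays differing from each other more than the L+G arrays. SLC7A11, the cystine importer, read -0.81 and -0.72 against 1.49 and 2.11 (-2.56 ± 0.23, adjusted p = 0.000344). Lower calls included the glycine transporter SLC6A9 (-2.76, with 1 of 2 L+G arrays above background), the serine-to-cysteine enzyme CBS (-2.50), the glutamine carrier SLC1A5 (-2.42), the alanyl-tRNA synthetase AARS1 (-2.29), the mitochondrial enzyme PCK2 (-1.92) and asparagine synthetase, ASNS (-1.21). Of the 21 endoplasmic reticulum chaperone genes, 1 was lower, HERPUD1, a stress-induced degradation factor (-1.29), whose call was lost when any 1 of the 4 arrays was left out, and the median was -0.37.

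The amino acid response element TGATGCAA, read on both strands, was found in 7 of 37 ATF4 list members with a promoter entry and in 0.923% of all promoters. Of the 14 called members with an entry, CHAC1 and AARS1 held it, and they are printed for that reason, with the element in capitals as its reverse complement, from chr15:40953221-40953520 (plus strand) and chr16:70289457-70289756 (minus strand). CHAC1, a glutathione-degrading enzyme, was lower by 1.40 ± 0.26 on the log2 scale.
CHAC1: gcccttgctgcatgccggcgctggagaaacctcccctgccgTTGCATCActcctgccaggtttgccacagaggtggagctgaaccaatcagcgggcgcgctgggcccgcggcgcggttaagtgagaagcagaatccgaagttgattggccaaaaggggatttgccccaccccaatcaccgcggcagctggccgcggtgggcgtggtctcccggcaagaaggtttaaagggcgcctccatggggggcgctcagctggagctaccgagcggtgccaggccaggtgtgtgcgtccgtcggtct
AARS1: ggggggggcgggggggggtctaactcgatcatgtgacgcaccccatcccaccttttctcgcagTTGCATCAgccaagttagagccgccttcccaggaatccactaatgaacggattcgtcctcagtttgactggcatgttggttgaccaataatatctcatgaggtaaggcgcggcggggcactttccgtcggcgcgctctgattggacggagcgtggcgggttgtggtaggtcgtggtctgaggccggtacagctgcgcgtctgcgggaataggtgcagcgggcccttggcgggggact

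Against DMSO, both groups can be set side by side, though they share the 2 DMSO arrays. Of the 42 replication genes, 39 were lower than DMSO with luteolin (median -1.90) and 5 were lower with L+G (median -0.36), where 6.17% and 7.69% of all genes were lower. Of the 37 mitosis genes, 36 were lower with luteolin (median -2.19) and 27 with L+G (median -1.67). Of the 42 ATF4 genes, 30 were higher than DMSO with luteolin (median 1.33) and 12 with L+G (median 0.40), where 7.22% and 12.1% of all genes were higher.

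**Figure D3:**
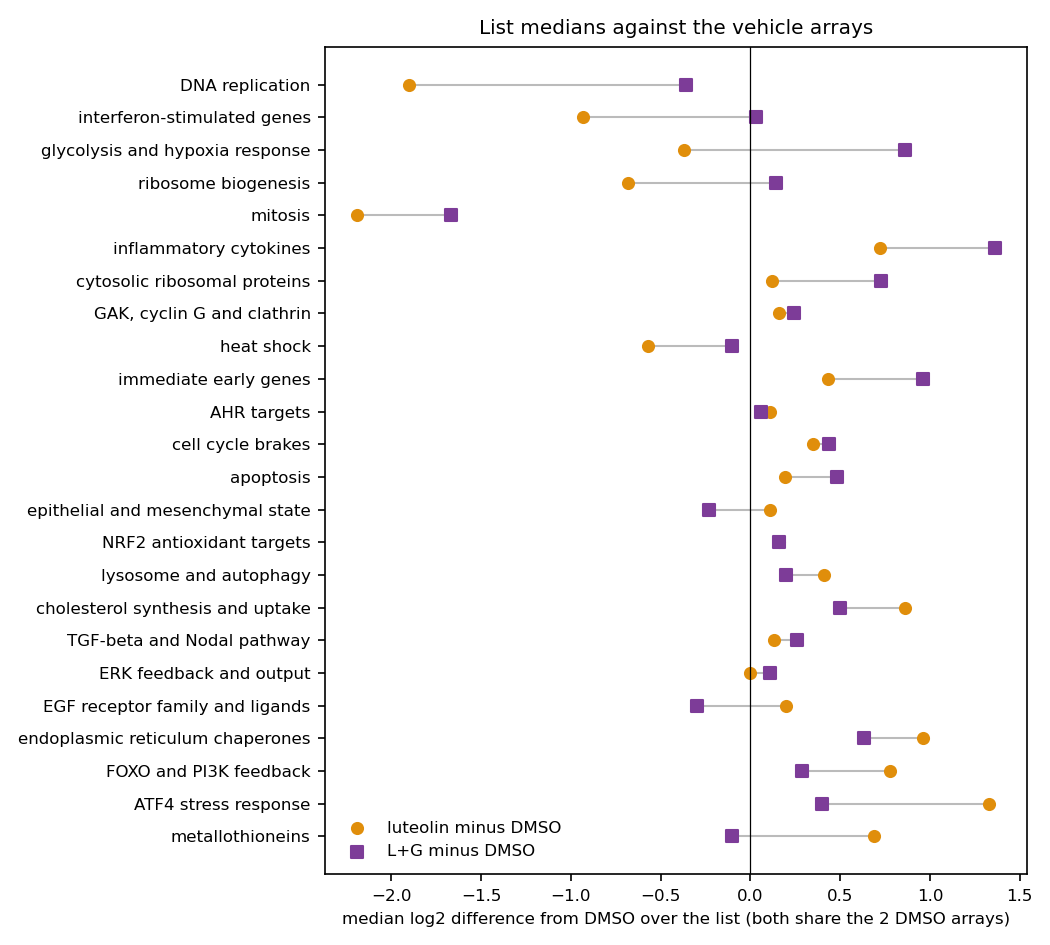
Median log2 difference from DMSO (x axis) of 24 gene lists (y axis) on luteolin-titled arrays (orange circles) and L+G-titled arrays (purple squares), joined by a grey line, with both sharing the same 2 DMSO arrays. The replication median is -1.90 with luteolin and -0.36 with L+G, and the ATF4 median is 1.33 and 0.40.

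Glycolysis and hypoxia response genes were higher with L+G, 17 of 27 tested (63%, beside 11.3% of all genes) with 0 lower and a median of 1.10. ADM, the vasodilator peptide adrenomedullin, read 2.81 and 2.70 with L+G, -0.49 and -0.04 with luteolin and -0.06 and 0.28 with DMSO (3.02 ± 0.24, 8.11-fold, adjusted p = 0.000241). Here the luteolin arrays were close to the vehicle and the L+G arrays stood apart. BNIP3, a mitophagy receptor, read 5.56 and 5.05 against 2.98 and 3.19 (2.22 ± 0.24, adjusted p = 0.000614), and PGAM1, phosphoglycerate mutase, 5.08 and 5.44 against 3.28 and 3.22 (2.01 ± 0.17, adjusted p = 0.000305). The glucose transporter SLC2A1 (1.97) and the enzymes PDK1 (1.97), PGK1 (1.67), ENO1 (1.59) and LDHA (1.35) were also higher. In 24 of 27 members both L+G arrays lay above both luteolin arrays, beside 42.6% of all genes. Against DMSO 10 members were higher with L+G, beside 12.1% of all genes. With luteolin 3 were higher and 3 lower, beside 7.22% and 6.17% of all genes. Quantile normalization left 8 members called and a median of 0.87.

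Interferon-stimulated genes were higher with L+G in 15 of 29 members (51.7%, beside 11.3% of all genes), with a median of 1.17 and 1 lower. IFIT1, which binds foreign RNA ends, read 4.72 and 2.91 with L+G and 1.71 and 0.85 with luteolin (2.54 ± 0.53, adjusted p = 0.00699), a call lost without the second luteolin array. OAS3, an RNA sensor of the oligoadenylate synthetase family, read 3.59 and 3.07 against 1.39 and 1.10 (2.09 ± 0.24, adjusted p = 0.000728), and the tethering factor BST2 read 1.46 and 2.14 against -0.34 and -0.07 (3.99-fold, adjusted p = 0.00203). The lower member was ISG20, an exonuclease, at 2.57 and 2.17 against 4.54 and 4.65 (-2.23 ± 0.20, adjusted p = 0.00032). Against DMSO, 13 members were lower with luteolin, beside 6.17% of all genes, and the L+G median was 0.03. Leaving out the first L+G array or the second luteolin array left 8 members called higher.

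The interferon-stimulated response element, ISRE, was added to the motifs after the values were seen. It was found on either strand in 16 of 22 members with a promoter entry and in 3.65% of all promoters, and in 12 of 13 called members. IFIT1, from chr10:89392373-89392672 (plus strand), and OAS3, from chr12:112938224-112938523 (plus strand), each held 2 ISRE matches, in capitals.
IFIT1: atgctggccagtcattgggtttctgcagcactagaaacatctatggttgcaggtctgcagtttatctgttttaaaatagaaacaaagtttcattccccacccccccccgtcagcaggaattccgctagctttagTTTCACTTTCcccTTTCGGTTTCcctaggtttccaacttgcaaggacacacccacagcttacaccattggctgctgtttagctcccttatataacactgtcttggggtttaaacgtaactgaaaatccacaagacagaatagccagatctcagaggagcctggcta
OAS3: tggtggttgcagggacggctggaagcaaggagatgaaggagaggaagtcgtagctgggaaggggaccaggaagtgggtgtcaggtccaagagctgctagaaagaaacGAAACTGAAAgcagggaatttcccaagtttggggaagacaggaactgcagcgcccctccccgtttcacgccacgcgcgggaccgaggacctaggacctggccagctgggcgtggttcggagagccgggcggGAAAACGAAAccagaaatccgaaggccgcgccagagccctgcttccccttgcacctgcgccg

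Among inflammatory cytokine genes 9 of 24 (37.5%) were higher with L+G and 1 was lower, beside 11.3% and 9.75% of all genes, with a median of 0.72. CXCL6, a neutrophil chemokine, read 0.82 and 0.98 with L+G and -2.14 and -2.53 with luteolin (3.24 ± 0.23, adjusted p = 0.000175), and the groups did not overlap. CSF2, the growth factor GM-CSF, differed by 4.31 ± 0.54, with 1 of 2 luteolin arrays above background. CCL20, a lymphocyte chemokine, and TNF were above background on both L+G arrays and neither luteolin array, at least 11.6-fold and 2.70-fold higher as processed here. Their log2 differences fell to 2.12 and 1.12 in the alternatives. The lower member was the adhesion molecule ICAM1 (-1.36, adjusted p = 0.00542). Immediate early genes were mixed, 6 of 23 (26.1%) higher and 2 (8.7%) lower. They were led by FOS (3.38, with 1 of 2 luteolin arrays above background) and, at least 4.04-fold as processed here, EGR1 among the higher. The log2 difference of EGR1 fell to 1.28 in the alternatives. The lower members were KLF2 (-2.21, a call lost with the median over its probes), a vascular transcription factor, and RASD1 (-1.61), a small GTPase.

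**Figure D4:**
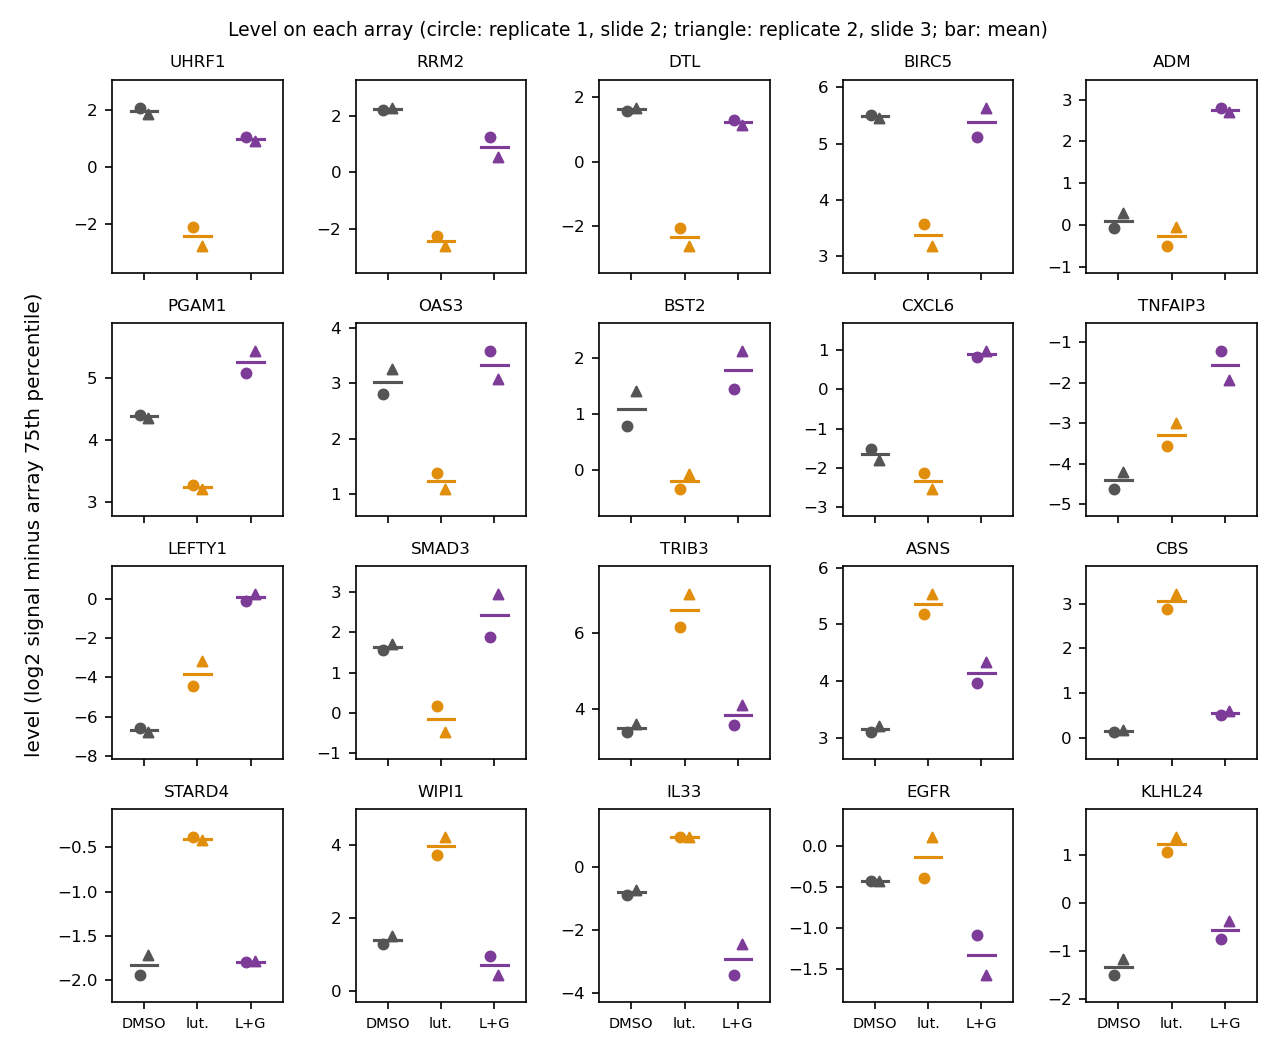
Level of 20 genes (y axis, log2 units scaled to the 75th percentile, with its own range per panel) on each DMSO, luteolin and L+G array (x axis). Circles are replicate 1 on slide 2, triangles replicate 2 on slide 3, and bars group means of the 2 arrays. UHRF1 reads near 1 with L+G and below -2 with luteolin, and TRIB3 is lower with L+G than with luteolin.

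EGFR is the target of gefitinib, which the titles name for the L+G arrays and the file names for the luteolin arrays instead. EGFR itself read -1.09 and -1.57 with L+G and -0.39 and 0.11 with luteolin (-1.19 ± 0.22, 2.29-fold lower, adjusted p = 0.0042), a call lost without the second L+G or the second luteolin array. ERBB4, a related receptor, read -6.91 and -5.98 with L+G, where it was not above background, and -2.55 and -2.20 with luteolin. As processed here it was at least 8.28-fold lower (adjusted p = 0.000356), and with normexp its log2 difference was -1.43. NRG2, a ligand of the family, was lower by 1.66 ± 0.22 on the log2 scale. LRIG3 was lower by 1.21, with 1 of 2 L+G arrays above background and its call lost in 11 of 22 alternatives. In all, 4 of 20 members (20%, beside 9.75% of all genes) were lower and 0 higher, with a median of -0.36 that became 0.13 with normexp background correction. The number lower was 2 without the second L+G or the second luteolin array and 7 without the first L+G array. Of the ERK output genes 2 of 23 (8.7%, beside 11.3% of all genes) were higher, EPHA2 (1.63) and CCND1. Lower were 3 (13%), the transcription factor ETV1 (-1.35), the inhibitor SPRED1 (-1.13) and EMP1 (-1.02). All 3 lower calls, and that of EPHA2, were lost without the second L+G array. The SPRED1 and EMP1 calls were lost with the median over their probes too, which put EMP1 at -0.19.

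FOXO and PI3K feedback genes were lower in 7 of 21 members (33.3%, beside 9.75% of all genes) and higher in 1, with a median of -0.68. INPP4B, a lipid phosphatase, read -3.72 and -3.35 with L+G and -1.54 and -1.50 with luteolin (-2.01 ± 0.20, adjusted p = 0.000501). KLHL24, a substrate adaptor, read -0.74 and -0.38 against 1.07 and 1.38 (-1.78 ± 0.25, adjusted p = 0.00147). The single higher member was TXNIP, an inhibitor of thioredoxin (1.39). Without the second L+G array 3 members were lower, and the TXNIP call was lost without either L+G array or the first luteolin array.

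GAK, the clathrin-associated kinase studied with these drugs, read 0.58 and 0.85 with L+G and 0.85 and 0.88 with luteolin (-0.15 ± 0.17, adjusted p = 0.519), and the groups did not separate beyond the spread of the L+G arrays. Of the 18 genes of the GAK, cyclin G and clathrin list, 3 were lower, the cyclin genes CCNG1 (-1.01) and CCNG2 (-1.21) and the kinase STK16 (-1.02), and 0 higher, with a median of 0.35. The lower share was 16.7%, beside 9.75% of all genes. Without the second L+G array, 0 were lower. The xenobiotic enzyme CYP1A1 differed by -0.38 ± 0.33 (adjusted p = 0.374) and was above background on 0 of 2 L+G arrays. Of the 14 targets of the AHR receptor tested, 1 (7.14%, beside 11.3% of all genes) was higher, ALDH3A1 (1.22), a call lost in 10 of 23 alternatives. The median was 0.09.

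LEFTY1, a secreted inhibitor of Nodal signalling, was among the most raised genes in the TGF-beta list, with -0.09 and 0.26 on the L+G arrays, -4.46 and -3.17 on the luteolin arrays and -6.57 and -6.77 on the DMSO arrays (3.90 ± 0.55, 14.9-fold, adjusted p = 0.00161). Both groups were above the vehicle. The paper reports LEFTY1 raised far more by luteolin alone than by gefitinib alone or by both drugs. The order on these arrays is that of the file names, luteolin above gefitinib, and not that of the titles. The arrays titled gefitinib read -2.08 and -3.75, so those titled L+G, with luteolin in the file name, were the highest of all drug-treated arrays. SMAD3, a signal transducer of the pathway, read 1.89 and 2.96 against 0.17 and -0.47 (2.58 ± 0.35, adjusted p = 0.00134), and the ligand genes INHBA (1.64), TGFB2 (1.55) and INHBB (1.49) were higher. The receptor TGFBR2 (-1.20), the inhibitor SMAD7 (-1.16) and the targets ID3 (-1.27) and ID2 (-1.08) were lower. In all, 5 of 27 (18.5%) were higher and 4 (14.8%) lower, beside 11.3% and 9.75% of all genes, with a median of -0.19. Without the second L+G array 5 were higher and 0 lower.

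Lysosome and autophagy genes were lower in 6 of 35 members (17.1%, beside 9.75% of all genes) and higher in 1, with a median of -0.11. WIPI1, an early autophagosome protein, read 0.97 and 0.45 with L+G and 3.73 and 4.23 with luteolin (-3.27 ± 0.25, 9.65-fold lower, adjusted p = 0.000219). GABARAPL1, an ATG8 family protein, was lower by 1.99 ± 0.22 and the sialidase NEU1 by 1.63 ± 0.18 on the log2 scale, while ATG12, a conjugation protein, was higher by 1.79 ± 0.31. Of the 32 cholesterol genes 6 (18.8%) were lower and 1 higher. Among the lower were STARD4, a sterol carrier, at -1.80 and -1.78 against -0.38 and -0.42 (-1.39 ± 0.18, adjusted p = 0.00102), and IDI1, an isomerase of the synthesis pathway, at -1.15. Leaving out the second L+G array gave 11 lower cholesterol genes. The metallothionein MT1F, a zinc-binding protein, differed by -2.03 ± 0.26 and MT1M by -2.16 ± 0.47 (a call lost without the second luteolin array). In that list 2 of 12 members (16.7%) were lower with a median of -0.83, and 8 were lower without the second L+G array.

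The antioxidant targets of NRF2 were lower in 4 of 23 members, SLC7A11, GCLC of glutathione synthesis (-1.54) and the reductases AKR1C1 (-1.57) and AKR1C3 (-1.22, a call lost without the second L+G array), and higher in 0, with a median of -0.09. Of 31 apoptosis genes, 4 were higher, among them BCL2L1 (1.88), an inhibitor of cell death, and BID (1.57), which promotes it, and 3 were lower, BMF (-2.22), which promotes death, and the caspases CASP9 (-1.48) and CASP6 (-1.23), both of whose calls were lost without the second L+G array. Heat shock genes had 1 of 17 higher, HSP90AA1 (1.14), a cytosolic chaperone, whose call was lost without the second L+G or the second luteolin array and with quantile normalization. Of the epithelial and mesenchymal genes 2 of 27 were higher, MMP3 (1.63) and SNAI1 (1.19). With each array left out these differences ranged from 0.93 to 2.33 and from 0.87 to 1.52. Lower were 4, with the collagenase MMP1 at -2.21 and the tight junction gene CLDN7 at -1.34, a call lost with normexp. These counts stand beside 11.3% of all genes higher and 9.75% lower. Ribosome biogenesis genes were higher in 10 of 28, led by the nucleolar gene NOP16 (1.53), and 0 lower, with a median of 0.88. The 37 ribosomal protein genes had a median of 0.65 and 2 calls, RPL22 and RPL35, under the 75th percentile scaling, but a median of 0 and 0 calls with quantile normalization, and 0 calls with normexp or median scaling, so no direction is given for them.

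The largest differences among genes with a clear signal on each of the 4 arrays and non-overlapping groups came from genes of several kinds. FAM209A, a protein linked to sperm, read 1.39 and 2.57 with L+G and -3.06 and -2.57 with luteolin (4.80 ± 0.40, 27.8-fold, adjusted p = 0.000268). CLEC3B, the plasminogen-binding tetranectin, differed by 4.07 ± 0.38, SELPLG, a selectin ligand, by 3.61 ± 0.25, and AOC3, an amine oxidase, by 3.72 ± 0.47. IL33, a nuclear alarmin, read -3.43 and -2.44 with L+G and 0.98 on each luteolin array (-3.91 ± 0.29, 15.1-fold lower, adjusted p = 0.000208). SCARA5, a ferritin receptor, read -0.09 and 0.05 against 3.49 and 3.48 (-3.51 ± 0.16, adjusted p = 9.48e-05), and the luteolin arrays alone stood away from DMSO, at -0.22 and -0.11. NNMT, which methylates nicotinamide, differed by -3.46 ± 0.32, GK, glycerol kinase, by -2.91 ± 0.15 and HEY1, a Notch target, by -2.85 ± 0.19.

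Where a gene was above background on both arrays of 1 group and neither of the other, the fold is a lower limit. For it a dim array counts at its own signal or, if higher, at the dimmest signal it could still tell from background. All such limits hold only for the data as processed here, and some alternatives gave differences smaller than the limits. Higher with L+G were HGD (at least 31.3-fold), FAM111B (27.9), PTAFR (23.6), FGR (23.1) and FAP (19.9), and lower were TXLNB (at least 11.4-fold), ERBB4, P2RX7 (7.70), MYO7A (5.40) and RGS9 (4.84). In the alternatives the measured log2 differences of the higher genes fell, in that order, to 3.62, 3.19, 2.96, 2.95 and 3.12, each below its limit. With normexp the measured differences of TXLNB, ERBB4 and P2RX7 were -1.62, -1.43 and -1.15, and MYO7A and RGS9, at -0.67 and -0.60, were no longer called. FAM111B, a protease, read -0.47 and -0.89 with L+G and -0.31 and -0.46 with DMSO, while the luteolin arrays read -5.71 and -6.22. HGD, an enzyme of tyrosine breakdown, read -6.36 and -2.94 on the DMSO arrays, and its call was lost without the second L+G or the second luteolin array.

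Each L+G array shares a slide with the luteolin array of the same number, so the difference could be taken within a slide. In all 133 named genes that were called the 2 groups did not overlap, so that their sign is the same on both slides by construction. The median over all genes was 0.11 on slide 2 and 0.20 on slide 3, and the replication median was 1.49 and 1.61. The mitosis median was 0.66 on slide 2 and 0.79 on slide 3.

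**Figure D5:**
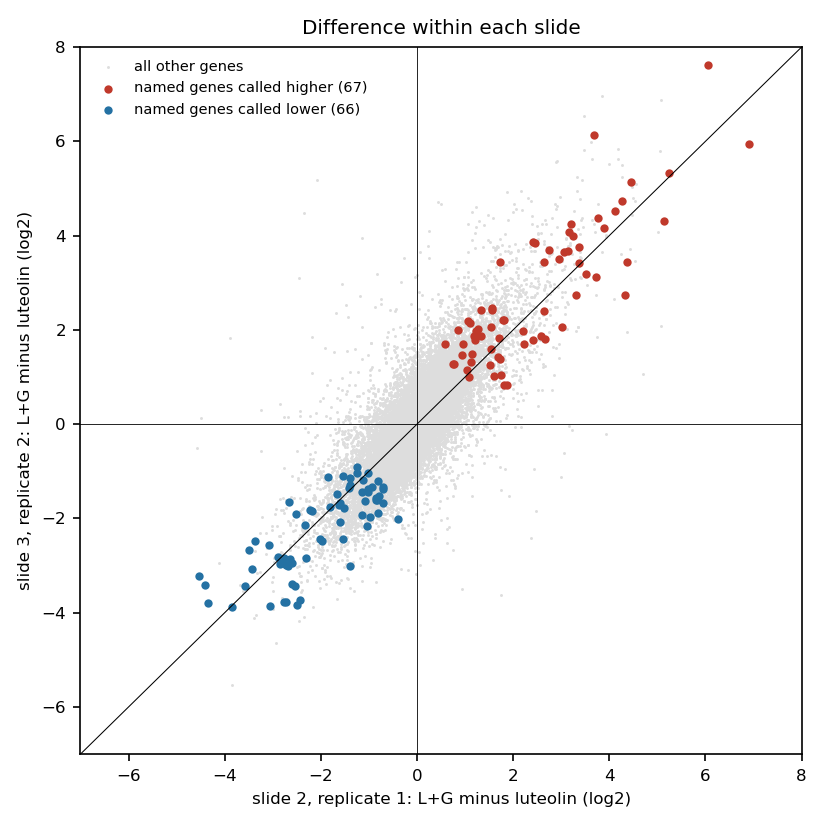
Difference L+G minus luteolin (log2) within slide 2 (x axis, replicate 1) and slide 3 (y axis, replicate 2) for the 133 named genes that were called, red where higher (67) and blue where lower (66), over the other genes in grey, with the line of equal differences. Since the groups do not overlap in these genes, their signs on the slides cannot differ.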

How the data were processed

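Gene expression was measured on single-colour Agilent Whole Human Genome arrays. The authors deposited the linear processed intensity from the scanner software (Agilent Feature Extraction, for which the file headers state 10.7.3.1 and the methods another version), with background and spatial trend removed and arrays not normalized to each other, and a value table with the same intensities. Intensities were taken as log2 relative to the 75th percentile of an array's non-control spots. Control spots and outlier spots were left out, and spots of a probe were averaged. Of 41000 probes, 28776 had a signal well above background throughout at least 1 group. A gene was represented by its probe with the highest mean, and symbols came from RefSeq where accessions matched (23958 probes). A limma model (limma 3.58.1, R 4.3.3) with 5 groups and no covariate was fitted to all 10 arrays, leaving 5 residual degrees of freedom, since the 4 arrays alone leave 2, and the script was tested on simulated data. P-values were adjusted over all probes kept. The contrast, the gene lists, the motifs and the rule for naming genes were chosen with earlier results of these data known. Named genes were the 15 largest differences in each direction among genes called, with groups not overlapping and well above background on all 4 arrays, the 5 largest lower limits in each direction, up to 4 called members of each list in each direction, the cell type markers, and GAK, EGFR, LEFTY1, CDKN2B and CYP1A1. A few genes that the rule names are not reported here. Other list members in the text are called members given as examples, chosen after their values were seen. Samples were grouped by title. Arrays carry no read depth, and signal over background and 2 arrays per group limit the precision. Alternatives were normexp, quantile and median scaling, other filters, the value table, the 4 arrays alone, replicate number or slide as a block, other fold thresholds, the median over a gene's probes, the methods' t-test and leaving out each array.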

Additional observations from a re-analysis of the deposited data

Results flagged for a closer look

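Named genes called between L+G and luteolin, and called in opposite directions against DMSO in the 2 groups, were picked out for a closer look. Their difference, L+G minus luteolin in limma, was part of how they were chosen, so it is no separate test of them. There were 14, and the number over all genes was not counted. CSF2 was above DMSO with L+G and below it with luteolin, with a difference of 4.31 and 1 of 2 luteolin arrays above background. The other 13 were below DMSO with L+G and above it with luteolin. Their differences were -3.91 for the alarmin IL33, -3.87 for the endothelial receptor ROBO4, -3.46 for NNMT, -3.25 for the guidance protein SEMA3D, -3.16 for the galactosyltransferase B3GALT4, -2.98 for the cadherin CDH15, -2.93 for FGF13 and -2.85 for both BBS9 and the Notch target HEY1. In TXLNB, ERBB4, the ATP-gated channel P2RX7 and the myosin MYO7A neither L+G array was well above background, so their measured differences (-3.86, -4.07, -3.25 and -2.82) stand only for limits of at least 11.4-fold, 8.28-fold, 7.70-fold and 5.40-fold lower. These limits hold for the data as processed here, and with normexp the differences were smaller than the limits.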

How the results depend on the processing

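Of the 133 named genes called, 61 stayed called in all of their 22 or 23 alternatives. None changed direction, but most alternatives could not have shown a change. The groups do not overlap in these genes, so leaving out an array, another fold threshold, the value table or the 4 arrays alone cannot reverse a sign. The counts of 2222 higher and 1923 lower became 4636 and 3609 with no minimum fold, 490 and 291 at 4-fold, and 553 and 505 by the methods' t-test before adjustment and 0 and 1 after it. With normexp 1006 were lower. Leaving out each array gave 1571 to 3018 higher and 1534 to 2480 lower. List medians moved with normexp for the EGF receptor family (0.13), with quantile normalization for ATF4 (-1.01), metallothioneins (-1.36), cholesterol (-0.56), lysosome (-0.29), glycolysis (0.87), ribosome biogenesis (0.67) and ribosomal proteins (0), and with the median over probes for DNA replication (1.77) and the GAK list (0.14). With each array left out, medians ranged from 0.42 to 1.05 for mitosis, -0.40 to -0.11 for endoplasmic reticulum chaperones, -0.13 to 0.25 for NRF2, -1.45 to -0.17 for metallothioneins, 0.60 to 1.51 for interferon-stimulated genes, 0.40 to 0.91 for ribosomal proteins, -0.62 to -0.08 for cholesterol and 0.74 to 0.91 for ribosome biogenesis. The medians of the EGF receptor and NRF2 lists thus changed sign. So, with an array left out, did those of the AHR targets (-0.18 to 0.09), heat shock (-0.01 to 0.27), apoptosis (-0.05 to 0.10), cell cycle brake (-0.17 to 0.01) and lysosome (-0.24 to 0.01) lists, and under another scaling, filter or background correction those of the TGF-beta (-0.19, then 0.06 and 0.02), immediate early (0.19, then -0.02) and epithelial and mesenchymal (-0.07, then 0.01) lists. The cause was not tested. The share of called genes that were higher was 53.6%, 43.2% with quantile normalization and 59.8% with normexp. The replicate block, which pairs arrays by number and equally by slide in this contrast, gave 2220 higher and 1942 lower, and of 4145 called genes 4102 were shared. Among the named genes it ended the call of CDKN2B and no other. Deviations of same-numbered arrays correlated at 0.154 over 16273 genes, and the titles share only a number. Without the second L+G array 2699 of 4145 calls were shared. Dim genes, above background on few arrays, are measured least well.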

Other observations

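Gene families were counted after their values were seen, by symbol alone, and some members, such as SLC7A11, SLC6A9 and SLC2A1, are also in the lists. The counts stand beside 11.3% of all genes higher and 9.75% lower. Of 412 ZNF zinc finger genes, which encode mostly transcriptional regulators, 72 (17.5%) were higher with L+G and 16 (3.88%) lower, with a median of 0.37. Of 237 SLC solute carrier genes, 18 were higher and 44 (18.6%) lower. Of 52 RAB genes, small GTPases of vesicle traffic, 0 were higher and 7 lower, with a median of -0.34 against 0.16 over all genes. RAB17 differed by -2.08 and RAB27B, a secretory RAB, by -1.85.

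Of 18 ATP synthase subunit genes 7 were higher and 0 lower (median 0.83, which was 0.57 on slide 2 and 1.12 on slide 3). Of 42 complex I subunit genes 2 (4.76%) were higher and 0 lower (median 0.58). Of 37 proteasome subunit genes 4 (10.8%) were higher and 0 lower. Histone genes had 9 of 62 higher and 1 lower, keratins 5 of 24 and 4, and S100 genes 5 of 14 and 0. Of 10 Fanconi anaemia genes, which repair DNA crosslinks, FANCA (1.87), FANCB (1.40), FANCD2 (1.93) and FANCI (1.49) were higher and 0 were lower. Of 18 tubulin genes 5 were higher, led by TUBA1B (2.15), and 1 was lower, TUBE1 (-1.15). These families were not examined under the other scalings.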
